A study of Mus musculus with 14 samples.

Results

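The 45 genes described here build, recycle and use glutathione or remove reactive oxygen species by other routes. They were taken by gene symbol from an RNA sequencing table of 35275 genes, and all 45 symbols were found in it. By role they are 2 regulators, 2 marker enzymes of the transcription factor NRF2, 4 genes of glutathione synthesis, 6 of glutathione reduction and NADPH supply, 9 thioredoxins and peroxiredoxins, 4 glutathione peroxidases, 12 glutathione transferases, 4 genes for catalase and the superoxide dismutases, and 2 metallothioneins. Their mRNA was measured in 14 samples of 5 lines of mouse ovarian cancer cells, all grown for 5 days as floating tumorspheres in serum-free medium and none given a drug. KMF is the parental line, selected in C57Bl6 mice from the ovarian epithelial line ID8 and carrying extra copies of *Myc* and *Ptk2*, the gene of focal adhesion kinase (FAK). FAK KO is KT13, 1 clone of KMF in which CRISPR editing of exon 4 of *Ptk2* removed FAK. The remaining 3 lines were made from KT13 and keep its edit. They were transduced with virus, selected with puromycin or hygromycin and enriched by flow cytometry. No KT13 line with an empty vector is among the 14 samples, so in comparisons with FAK KO the insert cannot be told apart from this handling. FAK-WT carries GFP-tagged FAK from a lentivirus with a CMV promoter, FAK-R454 carries a GFP-tagged FAK without kinase activity, and β-catenin ΔGSK carries a β-catenin that lacks the sites GSK3β phosphorylates. There were 3 samples of each line except FAK-R454, which had 2. Nothing in the labels ties the samples to separate clones, so p-values measure the spread between RNA samples of 1 clone or 1 derived line.

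Glutathione is a small thiol made from glutamate, cysteine and glycine. Glutathione peroxidases spend it on peroxides, glutathione transferases attach it to reactive compounds, and glutathione reductase restores it with NADPH. Thioredoxins and peroxiredoxins form a parallel system that also draws on NADPH. The transcription factor NRF2, encoded by *Nfe2l2*, drives many of these genes through antioxidant response elements in their promoters, and KEAP1 holds NRF2 down by sending it to the proteasome. Metallothioneins are cysteine-rich proteins that bind zinc and copper, and their promoters carry metal response elements. In ovarian cancer these systems are best known for their part in tolerance of platinum drugs.

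The libraries held 25390558 to 35289859 fragments on genes, so most of these genes rest on many fragments per sample. Replicate 3 of FAK-WT stood apart among the antioxidant genes. It was the farthest of its 3 samples from their median in 35 of 43 of these genes with a mean above 1 FPKM, and in 58.9% of all genes above that level. Replicate 3 of KMF was the farthest in 30 of 43, and in 56.5% of all genes. Markers of the ovarian surface epithelium or mesothelium summed to 1080 to 1821 FPKM, with *Krt7* and *Pax8* under 1 FPKM in every line. In FAK-WT over FAK KO 5 of the 7 tested were called higher, against 15.6% of all genes. They were *Krt8*, *Krt18*, *Krt19*, *Msln* and *Upk3b*, and the median of the 7 was 0.47 on the log2 scale. The sum of the list was 1577 to 1821 FPKM in FAK-WT against 1080 to 1261 FPKM in FAK KO. In β-catenin ΔGSK 3 were higher (*Wt1*, *Upk3b* and *Krt19*) and 2 lower (*Krt8* and *Msln*), against 23.7% and 34.4% of all genes. *Upk3b* was called higher in all 4 comparisons with FAK KO, most in FAK-R454 (2.96, 31.6 against 4.03 FPKM). The leukocyte list summed to 1.14 to 12.4 FPKM and came almost wholly from *Cd68*, which read 6.596 to 12.3 FPKM in FAK-WT and at most 4.34 FPKM elsewhere, while *Ptprc* read at most 0.00759 FPKM. The fibroblast list, mostly *Dcn*, summed to 31.4 to 134 FPKM and moved with the lines. *Dcn* was lower than in FAK KO in KMF (-1.57) and in β-catenin ΔGSK (-1.36). *Pdgfra* was higher in FAK-WT (1.72), FAK-R454 (1.53) and KMF (1.55) and lower in β-catenin ΔGSK (-1.77). All of these are on the log2 scale with adjusted p from limma under 0.05. In β-catenin ΔGSK *Pdgfra* averaged 0.815 FPKM, below the limit of 1 FPKM, and was tested only through FAK KO (3.03 FPKM). The other 4 genes of that list, *Acta2*, *Lum*, *Myh11* and *Pdgfrb*, stayed under 1 FPKM in every line. *Ptk2* mRNA averaged 43.4 FPKM in FAK-WT, 62.4 FPKM in FAK-R454, 24.3 FPKM in KMF, 15.5 FPKM in β-catenin ΔGSK and 19 FPKM in the clone without FAK. These values cover the whole gene, including whatever the construct adds, and do not test the edit in exon 4. The samples are bulk cultures, in which fewer cells of a kind and less RNA per cell cannot be told apart. *Cd68*, the 1 leukocyte marker above 1 FPKM, was highest in FAK-WT and lowest in β-catenin ΔGSK. Of 5 endothelial markers, *Pecam1* was the 1 tested, and read 0.286 FPKM on average in β-catenin ΔGSK against 1.02 FPKM in FAK KO. The part of these marker genes in the differences between lines was not tested.

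Promoters are shown for the metallothioneins, which had the largest fold changes of the tested antioxidant genes in FAK-WT and FAK-R454, and for the members that hold the strictest form of the NRF2 motif. RefSeq promoters of build GRCm38.p6 were found for 39 of the 45 genes, as 49 entries, and not for *Gsta4*, *Sod3*, *Gclc*, *Prdx6*, *Hmox1* and *Gsr*. The window ran from 250 bases before the annotated start through the first 30 transcribed bases, and both strands were searched. The antioxidant response element core TGACNNNGC was in 11 of the 49 windows and in 11.5% of all 32851 promoters. It was found for *Nfe2l2*, *Gclm*, *G6pdx*, *Pgd*, *Me1*, *Prdx1*, *Txnrd1*, *Gstm5*, *Mgst1*, *Sod1* and *Mt2*. The longer TGACTCAGC, which is a form of that core, was in 3 of the 49, those of *Me1*, *Prdx1* and *Mt2*, and in 0.426% of all promoters. A metal response element core, TGCGCNC or TGCACNC, was in 13 of the 49 windows and in 24.1% of all promoters. In the sequences below, written 5′ to 3′ on each gene's strand, capitals mark TGACTCAGC on either strand and, for the metallothioneins, also the metal response element cores. *Mt1* and *Mt2* lie side by side on the plus strand, at chr8:94178839-94179118 and chr8:94172368-94172647. *Me1* is on the minus strand at chr9:86695885-86696164 (1 of its 2 entries) and *Prdx1* on the plus strand at chr4:116685349-116685628.
Mt1: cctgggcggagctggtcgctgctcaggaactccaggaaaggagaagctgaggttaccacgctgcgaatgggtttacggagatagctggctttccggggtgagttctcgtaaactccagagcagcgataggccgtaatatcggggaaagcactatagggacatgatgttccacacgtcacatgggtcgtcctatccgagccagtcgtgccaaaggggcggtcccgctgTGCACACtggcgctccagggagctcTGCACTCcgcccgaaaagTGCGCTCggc
Mt2: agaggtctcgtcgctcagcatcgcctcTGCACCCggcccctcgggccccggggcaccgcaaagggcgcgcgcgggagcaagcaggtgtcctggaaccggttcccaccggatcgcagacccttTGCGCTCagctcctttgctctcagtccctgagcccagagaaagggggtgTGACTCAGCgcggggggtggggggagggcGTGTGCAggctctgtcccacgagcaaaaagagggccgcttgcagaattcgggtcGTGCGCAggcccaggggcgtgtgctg
Me1: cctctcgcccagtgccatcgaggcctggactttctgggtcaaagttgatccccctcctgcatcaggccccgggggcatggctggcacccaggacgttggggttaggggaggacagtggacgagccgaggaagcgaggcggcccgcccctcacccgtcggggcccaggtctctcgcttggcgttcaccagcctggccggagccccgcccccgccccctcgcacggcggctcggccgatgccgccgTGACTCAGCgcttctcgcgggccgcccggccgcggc
Prdx1: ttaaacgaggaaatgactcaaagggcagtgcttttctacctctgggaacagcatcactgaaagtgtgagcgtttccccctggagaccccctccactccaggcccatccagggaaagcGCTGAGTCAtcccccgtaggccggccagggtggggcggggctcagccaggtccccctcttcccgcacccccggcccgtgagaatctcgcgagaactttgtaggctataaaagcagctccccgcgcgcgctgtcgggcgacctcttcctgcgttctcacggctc
The *Mt1* window held 3 matches to the metal response element cores. The *Mt2* window held 4 of them together with 1 TGACTCAGC, and no capital run in either overlaps another. A match is a run of letters and does not show that a factor binds there.

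Values are FPKM, fragments scaled to the length of the gene and to the depth of the library, in the order of the replicates. A fold change is the difference between line means of log2(FPKM + 0.1), tested with limma and adjusted over all genes above 1 FPKM in either line, and is given in parentheses with its SE and adjusted p. A gene was called at any fold when its adjusted p was under 0.05, and at 2 fold when its log2 fold change was also 1 or more in size with a mean above 1 FPKM in the higher line. A gene below 1 FPKM in 1 of the 2 lines was thus tested only through the line where it is high. This holds for *Gstt1* wherever it was tested, and for *Gstt3* and *Gstp2* in β-catenin ΔGSK over FAK KO. Outside the 45 it holds for *Pdgfra* and *Mgst2* in that comparison and for *Ggt7* in KMF over FAK KO. It also holds for *Pecam1* in every comparison but FAK-WT over FAK KO. Of the 45 genes, 18 were above 100 FPKM on average in every line and 1, *Gstk1*, was below 1 FPKM in every line. The ratio of the highest to the lowest line mean was 2 or more for 17 genes and under 1.5 for 13. The highest mean was in β-catenin ΔGSK for 17 genes, in KMF for 11, in FAK KO for 10, in FAK-WT for 6 and in FAK-R454 for 1. All comparisons with FAK KO share its 3 samples, so their values stand side by side and are not independent of each other.

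**Figure D1:**
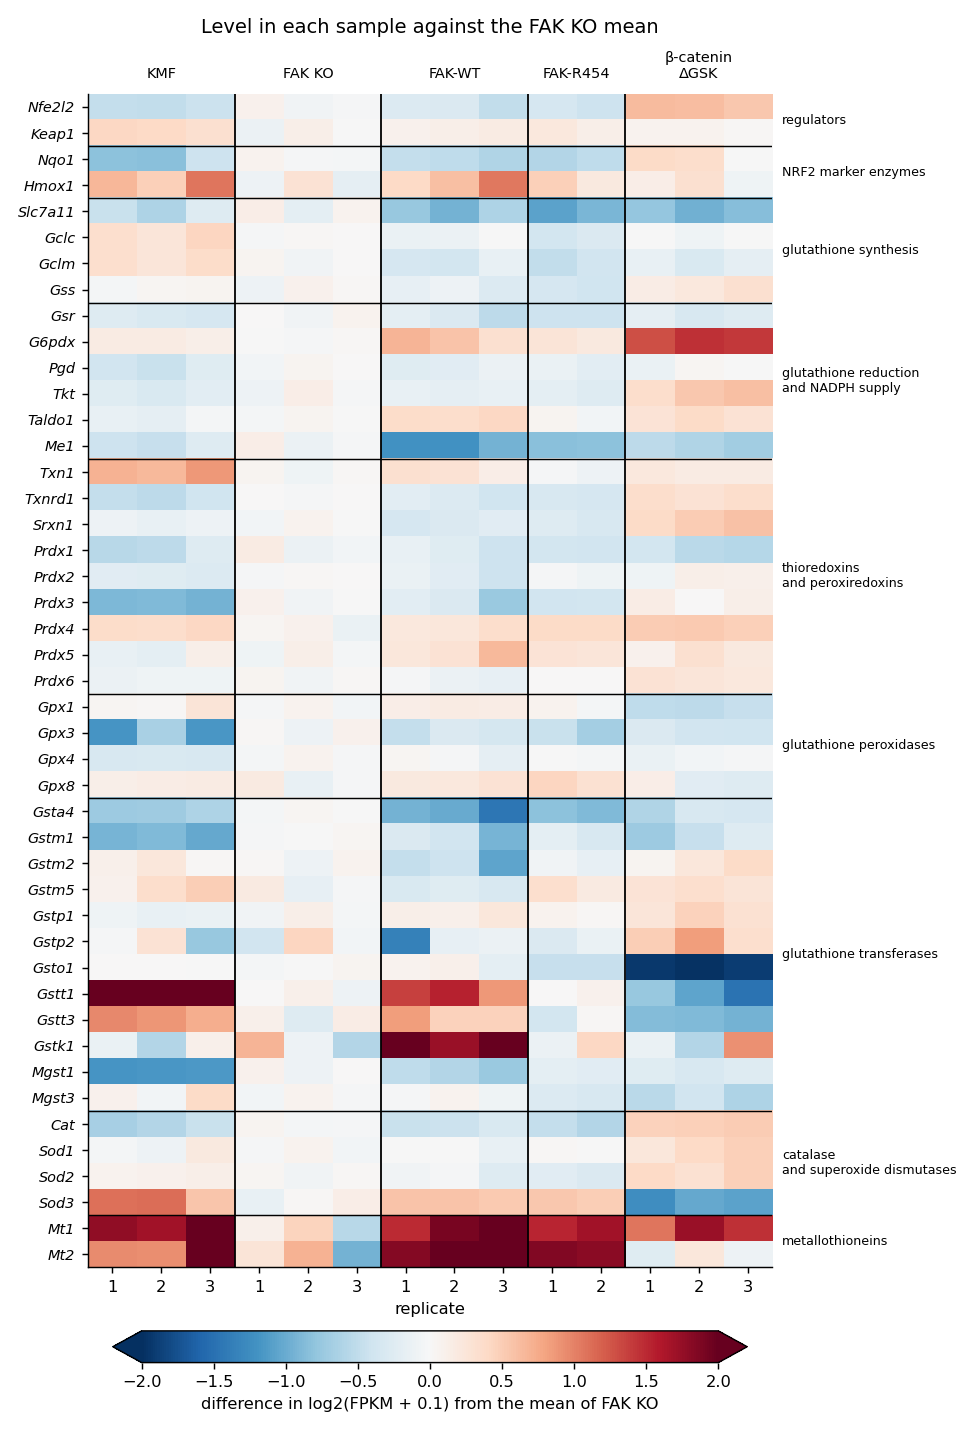
Difference of each sample from the FAK KO mean in log2(FPKM + 0.1), for the 45 genes (rows, by role) in the 14 samples (columns, by line and replicate). The color scale ends at 2 in either direction, and larger differences take the end color. The darkest reds include *Mt1* and *Mt2* in FAK-WT, *Gstt1* in KMF, and *Gstk1* in FAK-WT, which rests on 10 to 16 fragments per sample. *Gstt1* is blue in β-catenin ΔGSK. *Gsto1* is darkest blue in β-catenin ΔGSK, and *Nfe2l2* and *Cat* are blue in FAK-WT, FAK-R454 and KMF and red in β-catenin ΔGSK.

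In FAK-WT the metallothioneins *Mt1* and *Mt2* and the transferase *Gstt1* were at least 2 fold higher than in FAK KO. The malic enzyme *Me1* and the transferase *Gsta4* were at least 2 fold lower. In FAK-WT over FAK KO, 43 genes were tested, 11 (25.6%) rose and 17 (39.5%) fell at any fold. Among all 11841 genes tested the shares were 15.6% higher and 25.2% lower. The median log2 fold change of the 43 was -0.12, against -0.08 for all genes. Decreases outnumbered increases in a similar ratio among the antioxidant genes and among all genes. The 3 increases and 2 decreases at 2 fold stand against 2.91% and 1.71% of all genes, and with a pseudocount of 1 the *Gstt1* rise, which was tested only through FAK-WT, was 0.76, below 2 fold. The order of the counts turned with the scaling, which gave 13 higher and 12 lower under median-of-ratios scaling and 13 higher and 10 lower with chromosomes centred. Among all genes median-of-ratios scaling turned the share of higher genes from 38.3% of those called to 53.3%. Without FAK KO replicate 3 the counts were 6 and 10, and without FAK KO replicate 1 the count of lower genes was 11. Among all genes those fits gave 1191 higher and 1536 lower, and 2084 lower, in place of 1851 and 2986.

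In the FAK-R454 line, too, decreases from FAK KO outnumbered increases. In FAK-R454 over FAK KO, 42 genes were tested, 7 (16.7%) rose and 19 (45.2%) fell, against 9.78% and 9.89% of all genes. The median was -0.19, against -0.03 for all genes. At 2 fold, *Mt1* and *Mt2* rose, against 1.93% of all genes, and limma called 0 lower, against 0.812%. At an unadjusted p under 0.05, 0 were lower by 2 fold, and limma-voom called 1, *Slc7a11*. Leaving out 1 FAK-R454 sample leaves the other alone, and the fit then assumes that it varies like FAK KO. Fewer antioxidant genes, and fewer of all genes, were then called in either direction. Without FAK KO replicate 3, 4 were higher, and among all genes 694 in place of 1156.

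In the β-catenin ΔGSK line increases and decreases were nearly equal in number. In β-catenin ΔGSK over FAK KO, 43 genes were tested, 15 (34.9%) rose and 14 (32.6%) fell, against 23.7% and 34.4% of all genes. The median was 0.09, against -0.09 for all genes. At 2 fold, *G6pdx* and *Mt1* rose and *Gsto1* and *Sod3* fell, against 5.13% and 6.99% of all genes. Median-of-ratios scaling moved the median of all genes by 0.11, which gave 21 higher and 10 lower antioxidant genes and turned the share of higher genes among all called from 40.8% to 53.8%. In KMF over FAK KO, 43 genes were tested, 12 (27.9%) rose and 17 (39.5%) fell, against 23.1% and 28.7% of all genes, with a median of -0.08 against -0.05. At 2 fold, *Mt1*, *Mt2* and *Gstt1* (tested only through KMF) rose and *Mgst1* fell, against 3.97% and 4.04% of all genes.

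The metallothioneins *Mt1* and *Mt2* had the largest fold changes of the tested antioxidant genes in FAK-WT and FAK-R454, and *Mt1* was lowest in FAK KO. *Mt1* read 28.8, 36.7 and 18.3 FPKM in FAK KO, 75.5, 100.1 and 219.9 in FAK-WT, 77.3 and 85.7 in FAK-R454, 91.8, 86.2 and 172 in KMF, and 56.5, 88.8 and 73.9 in β-catenin ΔGSK. The FAK KO samples lie below every sample of the other lines. *Mt2* read 4.42, 6.07 and 1.86 FPKM in FAK KO, 13.5, 19.7 and 37.9 in FAK-WT, 13.7 and 13.2 in FAK-R454, 7.24, 7.15 and 21.3 in KMF, and 3.11, 4.32 and 3.42 in β-catenin ΔGSK. Here the β-catenin ΔGSK samples overlap those of FAK KO, and the other lines lie above both. *Mt1* (ENSMUSG00000031765, chr8:94179089-94180325) rose in FAK-WT (2.14 ± 0.38, adjusted p = 0.00364), in FAK-R454 (1.60 ± 0.24, adjusted p = 0.00361), in β-catenin ΔGSK (1.42 ± 0.24, adjusted p = 0.00121) and in KMF (2.04 ± 0.30, adjusted p = 0.000688). Its calls at any fold held whichever sample was left out. *Mt2* (ENSMUSG00000031762, chr8:94172618-94173567) rose in FAK-WT (2.52 ± 0.45, adjusted p = 0.00395), in FAK-R454 (1.83 ± 0.39, adjusted p = 0.0158) and in KMF (1.46 ± 0.49, adjusted p = 0.03496). In β-catenin ΔGSK its log2 difference was -0.04 ± 0.36 (SE), with a 95% interval of -0.86 to 0.77. Replicate 3 was the highest *Mt1* and *Mt2* sample in FAK-WT and KMF and the lowest in FAK KO. Without FAK-WT replicate 3 the rise in FAK-WT was 1.69 for *Mt1* and 2.11 for *Mt2*. The *Mt2* call in KMF was lost without KMF replicate 3 (0.94, adjusted p = 0.0747), FAK KO replicate 1 (1.59, adjusted p = 0.0573) or FAK KO replicate 3 (0.98, adjusted p = 0.102). The KMF call was also lost with no filter (adjusted p = 0.0847) and with chromosomes centred (adjusted p = 0.0544). The *Mt2* call in FAK-R454 was lost with no filter (adjusted p = 0.0658) and without either FAK-R454 sample (adjusted p of 0.106 and 0.0789). Between FAK-WT and FAK-R454 the differences, 0.54 ± 0.42 for *Mt1* and 0.68 ± 0.40 for *Mt2*, did not pass (adjusted p = 0.4498 and 0.3205), with 95% intervals of -0.49 to 1.57 and -0.28 to 1.65. The genes are close copies, and the text sources do not say how fragments that fit both were counted.

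**Figure D2:**
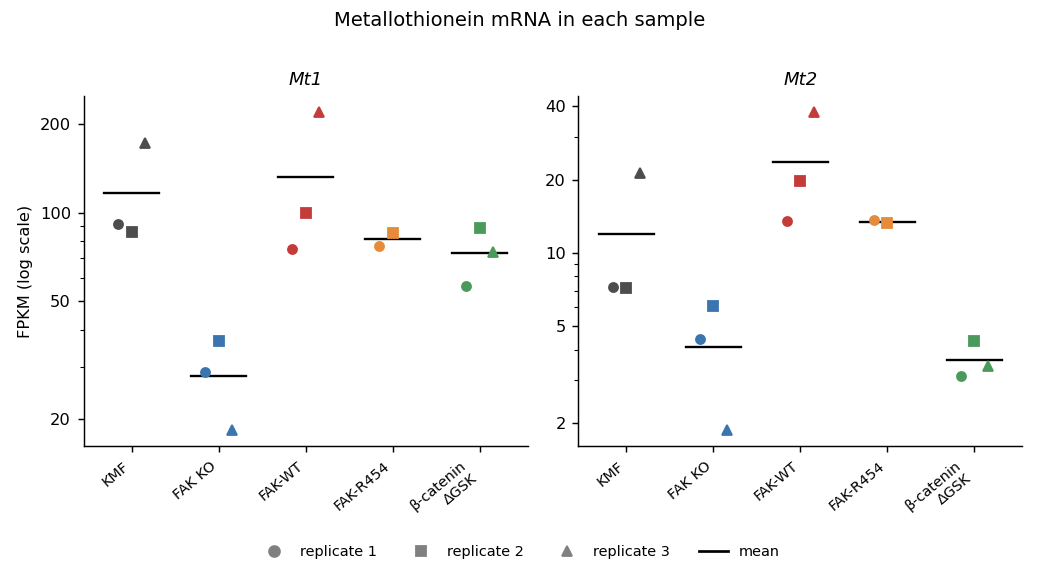
FPKM (log axis) of *Mt1* and *Mt2* in each sample, by line, with the line mean as a bar and a symbol for each replicate number. FAK KO is lowest for *Mt1*, while for *Mt2* FAK KO and β-catenin ΔGSK overlap, and replicate 3 is the top sample of FAK-WT and KMF.

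*Nfe2l2* itself differed between the lines, with FAK KO in the middle. *Nfe2l2* read 113, 101 and 105 FPKM in FAK KO, 88.1, 86.4 and 75.3 in FAK-WT, 83.9 and 79.95 in FAK-R454, 76.4, 75.5 and 79.1 in KMF, and 164, 163 and 153 in β-catenin ΔGSK. No β-catenin ΔGSK sample was below a FAK KO sample, and no FAK-WT, FAK-R454 or KMF sample was above one. *Nfe2l2* (ENSMUSG00000015839, chr2:75675513-75704641) fell in FAK-WT (-0.35 ± 0.08, adjusted p = 0.00961), in FAK-R454 (-0.37 ± 0.07, adjusted p = 0.00821) and in KMF (-0.46 ± 0.06, adjusted p = 0.000469), and rose in β-catenin ΔGSK (0.59 ± 0.06, adjusted p = 8.26e-05). The FAK-WT call was lost when chromosomes were centred on their own medians (-0.18, adjusted p = 0.0995), and the FAK-R454 call without either FAK-R454 sample (adjusted p up to 0.108). *Keap1* ranged from 21.7 FPKM in FAK KO to 28.2 FPKM in KMF and was called in 1 comparison, higher in KMF (0.38 ± 0.07, adjusted p = 0.003098).

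The marker enzymes of NRF2 did not move as 1 group. *Nqo1* encodes a quinone reductase and is a standard readout of NRF2. *Nqo1* read 169.9, 159.8 and 157 FPKM in FAK KO, 116, 114 and 106 in FAK-WT, 108 and 114 in FAK-R454, 91.9, 90.9 and 121 in KMF, and 211, 207 and 161 in β-catenin ΔGSK. It fell in FAK-WT (-0.53 ± 0.06, adjusted p = 0.00066), in FAK-R454 (-0.55 ± 0.06, adjusted p = 0.00124) and in KMF (-0.69 ± 0.11, adjusted p = 0.00108), and each of these groups lay below FAK KO. In β-catenin ΔGSK the difference of 0.24 ± 0.10 did not pass (adjusted p = 0.0709) and the groups overlapped. *Hmox1*, whose enzyme breaks heme down into biliverdin, iron and carbon monoxide, went the other way. *Hmox1* read 13.1, 17.2 and 12.5 FPKM in FAK KO, 18.6, 21.4 and 29.5 in FAK-WT, 19.7 and 16.3 in FAK-R454, 22.5, 19.6 and 29.9 in KMF, and 15.5, 17.7 and 13.3 in β-catenin ΔGSK. It rose in FAK-WT (0.68 ± 0.18, adjusted p = 0.0166) and in KMF (0.74 ± 0.17, adjusted p = 0.00596). The FAK-WT call was lost without FAK KO replicate 1 (0.63, adjusted p = 0.0659) or FAK KO replicate 3 (0.59, adjusted p = 0.0628). Replicate 3 was its highest sample in FAK-WT and in KMF, as for the metallothioneins.

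**Figure D3:**
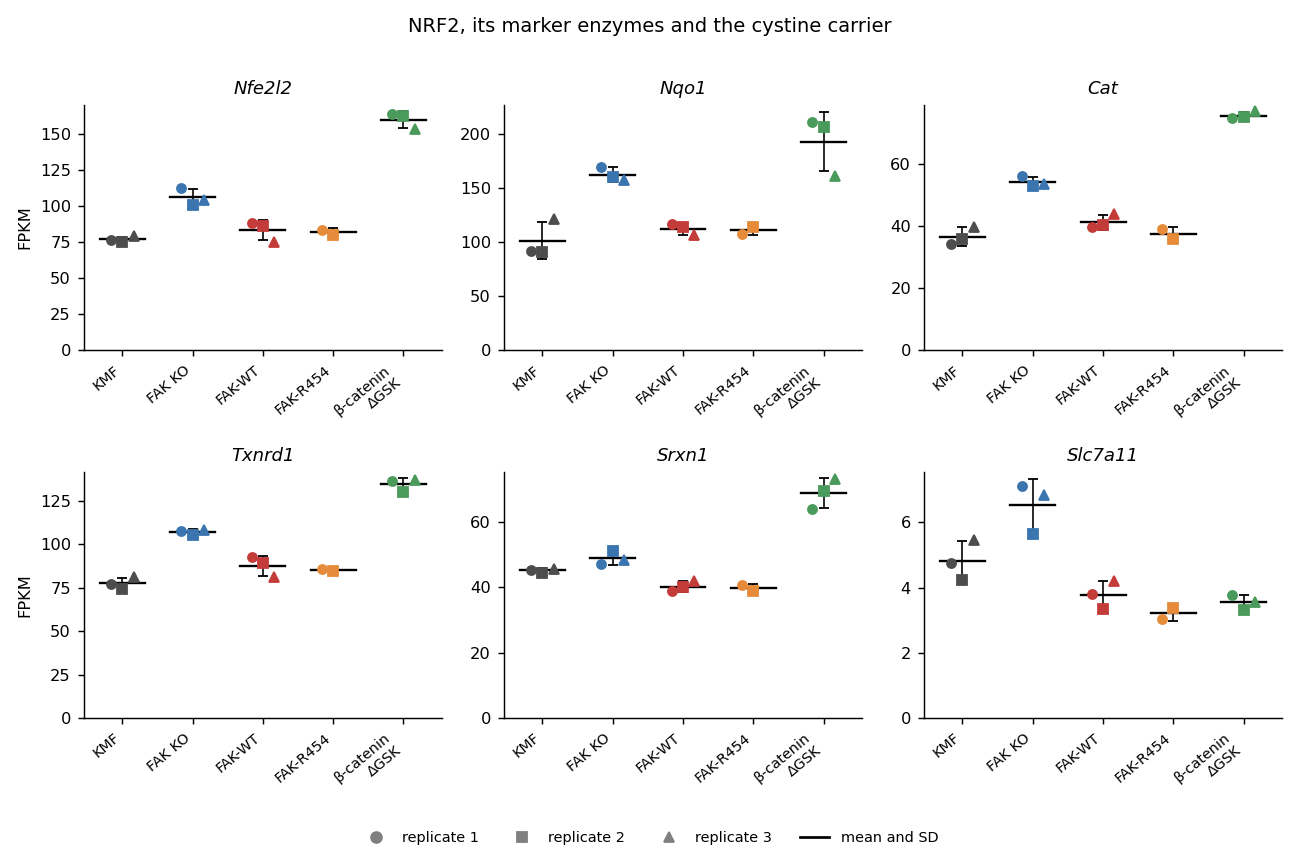
FPKM of *Nfe2l2*, *Nqo1*, *Cat*, *Txnrd1*, *Srxn1* and *Slc7a11* in each sample by line, with line means and SD (n = 3, FAK-R454 n = 2). β-catenin ΔGSK is highest for the first 5, and FAK KO is highest for *Slc7a11*.

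The 4 genes of glutathione synthesis had their lowest means in FAK-R454, where all 4 were called lower than in FAK KO, against 9.89% of all genes. *Slc7a11* encodes the carrier that brings in cystine. *Slc7a11* read 7.13, 5.64 and 6.83 FPKM in FAK KO, 3.79, 3.34 and 4.21 in FAK-WT, 3.05 and 3.39 in FAK-R454, 4.74, 4.23 and 5.45 in KMF, and 3.77, 3.31 and 3.56 in β-catenin ΔGSK. FAK KO lay above every sample of the other lines. *Slc7a11* fell in FAK-WT (-0.77 ± 0.12, adjusted p = 0.00208), in FAK-R454 (-0.99 ± 0.12, adjusted p = 0.00137), in β-catenin ΔGSK (-0.86 ± 0.11, adjusted p = 0.000236) and in KMF (-0.44 ± 0.12, adjusted p = 0.01602). The KMF call was lost without KMF replicate 2, FAK KO replicate 1 or FAK KO replicate 3 (adjusted p of 0.0568, 0.0523 and 0.0581).

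*Gclc* and *Gclm* encode the catalytic and modifier subunits of glutamate-cysteine ligase, the step that limits synthesis, and *Gss* encodes glutathione synthetase, which completes it. *Gclc* read 43.04, 44.3 and 44.02 FPKM in FAK KO, 40.1, 40.4 and 43.4 in FAK-WT, 33.9 and 35.6 in FAK-R454, 55.4, 52.1 and 58.98 in KMF, and 43.4, 41.04 and 43.6 in β-catenin ΔGSK. *Gclc* fell in FAK-R454 (-0.33 ± 0.06, adjusted p = 0.00852) and rose in KMF (0.34 ± 0.06, adjusted p = 0.002698), and in FAK-WT and β-catenin ΔGSK it overlapped FAK KO. *Gclm* read 19.2, 17.5 and 18.6 FPKM in FAK KO, 14.7, 14.3 and 16.7 in FAK-WT, 13.03 and 14.1 in FAK-R454, 23.3, 21.9 and 23.9 in KMF, and 16.7, 14.9 and 16.2 in β-catenin ΔGSK. *Gclm* fell in FAK-R454 (-0.44 ± 0.08, adjusted p = 0.00649), in FAK-WT (-0.28 ± 0.08, adjusted p = 0.0235) and in β-catenin ΔGSK (-0.21 ± 0.07, adjusted p = 0.0367), and rose in KMF (0.32 ± 0.07, adjusted p = 0.00428). KMF had the highest mean of both subunits. *Gss* read 17.2, 19.5 and 18.7 FPKM in FAK KO, 16.4, 17.2 and 15.3 in FAK-WT, 14.5 and 13.9 in FAK-R454, 17.9, 19.04 and 19.1 in KMF, and 20.4, 21.3 and 22.98 in β-catenin ΔGSK. *Gss* fell in FAK-R454 (-0.37 ± 0.08, adjusted p = 0.0138) and rose in β-catenin ΔGSK (0.22 ± 0.08, adjusted p = 0.03498). Several of these calls depended on single samples. In FAK-R454 those of *Gclc* and *Gss* were lost without either FAK-R454 sample and that of *Gclm* without replicate 1 (adjusted p up to 0.1401, 0.139 and 0.107), and that of *Gss* also without FAK KO replicate 3. The *Gclm* call in FAK-WT was lost without FAK-WT replicate 1 or 2 or FAK KO replicate 1 or 3 (adjusted p up to 0.0949). In β-catenin ΔGSK the calls of *Gclm* and *Gss* were lost without replicate 2 or 3 of that line or FAK KO replicate 1 or 3 (adjusted p up to 0.151 and 0.121). Median-of-ratios scaling ended the *Gclm* calls in FAK-WT and β-catenin ΔGSK, and centring of chromosomes ended those 2 and its call in KMF.

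Among the genes that supply NADPH, *G6pdx* and *Me1* moved in opposite directions. *G6pdx* encodes glucose-6-phosphate dehydrogenase, the first enzyme of the oxidative pentose phosphate pathway. *G6pdx* read 48.7, 48.5 and 49.96 FPKM in FAK KO, 78.4, 72.8 and 61.5 in FAK-WT, 58.8 and 56.4 in FAK-R454, 54.9, 54.98 and 53.3 in KMF, and 120.4, 136 and 131 in β-catenin ΔGSK. The β-catenin ΔGSK samples lie above all others, and FAK-WT lies above FAK KO. *G6pdx* (ENSMUSG00000031400, chrX:74409483-74429194) rose in β-catenin ΔGSK (1.39 ± 0.06, adjusted p = 5.49e-07) and in FAK-WT (0.52 ± 0.09, adjusted p = 0.00306). It was also called in FAK-R454 (0.23 ± 0.06, adjusted p = 0.0316), and in KMF (0.15 ± 0.05, adjusted p = 0.0488). Of the 7 alternatives other than sample removal, 3 ended the FAK-R454 call (adjusted p up to 0.168) and 3 the KMF call (up to 0.141). The FAK-R454 call was lost without either FAK-R454 sample or FAK KO replicate 3 (adjusted p up to 0.2895), and the KMF call without any one of KMF replicates 1 and 2 and the 3 FAK KO samples (adjusted p up to 0.158).

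*Me1* encodes the cytosolic malic enzyme, which makes NADPH from malate. *Me1* read 242, 205 and 219 FPKM in FAK KO, 95.8, 95.96 and 115 in FAK-WT, 124 and 125 in FAK-R454, 165, 160.0 and 186 in KMF, and 153, 146 and 137 in β-catenin ΔGSK. FAK KO was above every other sample, and FAK-WT below all of FAK-R454, β-catenin ΔGSK and KMF. *Me1* (ENSMUSG00000032418, chr9:86581371-86695953) fell in FAK-WT (-1.12 ± 0.09, adjusted p = 0.000126), in FAK-R454 (-0.83 ± 0.08, adjusted p = 0.000428), in β-catenin ΔGSK (-0.61 ± 0.08, adjusted p = 0.000228) and in KMF (-0.38 ± 0.09, adjusted p = 0.00618). *Gsr*, glutathione reductase, was called lower in FAK-WT (-0.34), FAK-R454 (-0.41), β-catenin ΔGSK (-0.25) and KMF (-0.30), from a FAK KO mean of 62.5 ± 2.93 FPKM (SD, n = 3). *Tkt* encodes transketolase of the non-oxidative pentose phosphate branch. *Tkt* read 237, 278 and 250.3 FPKM in FAK KO, 229.7, 226 and 231 in FAK-WT, 222 and 212 in FAK-R454, 215, 207 and 220.5 in KMF, and 326, 372 and 385 in β-catenin ΔGSK. It rose in β-catenin ΔGSK (0.50 ± 0.09, adjusted p = 0.00113) and fell in KMF (-0.25 ± 0.07, adjusted p = 0.0214), the latter lost without KMF replicate 1 or 2 or FAK KO replicate 3 (adjusted p up to 0.0811) and under median-of-ratios scaling. *Taldo1*, transaldolase, ranged from 199.9 FPKM in KMF to 282 FPKM in FAK-WT and rose in β-catenin ΔGSK (0.31) and in FAK-WT (0.38). *Pgd*, the phosphogluconate dehydrogenase of the oxidative branch, ranged from 104 to 133 FPKM and fell in FAK-WT (-0.19) and in KMF (-0.36).

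Thioredoxin reductase and sulfiredoxin mRNA were lower in FAK-WT and FAK-R454 and higher in β-catenin ΔGSK than in FAK KO. *Txnrd1* encodes the reductase that recharges thioredoxin with NADPH. *Txnrd1* read 108, 105 and 108 FPKM in FAK KO, 92.4, 89.03 and 81.1 in FAK-WT, 86.1 and 84.4 in FAK-R454, 77.2, 74.2 and 81 in KMF, and 136, 130.3 and 137 in β-catenin ΔGSK. It fell in FAK-WT (-0.29 ± 0.07, adjusted p = 0.01003), in FAK-R454 (-0.33 ± 0.06, adjusted p = 0.00675) and in KMF (-0.47 ± 0.06, adjusted p = 0.000315), and rose in β-catenin ΔGSK (0.33 ± 0.06, adjusted p = 0.00107). *Srxn1* encodes sulfiredoxin, which rescues over-oxidized peroxiredoxins. *Srxn1* read 47.2, 51.1 and 48.4 FPKM in FAK KO, 38.7, 39.9 and 41.8 in FAK-WT, 40.7 and 38.9 in FAK-R454, 45.4, 44.3 and 45.6 in KMF, and 63.8, 69.4 and 73.1 in β-catenin ΔGSK. It fell in FAK-WT (-0.28 ± 0.06, adjusted p = 0.00889) and in FAK-R454 (-0.30 ± 0.07, adjusted p = 0.0178) and rose in β-catenin ΔGSK (0.49 ± 0.07, adjusted p = 0.000434). In FAK-R454 the *Txnrd1* and *Srxn1* calls were lost without either FAK-R454 sample (adjusted p up to 0.102 and 0.183), and that of *Srxn1* also without FAK KO replicate 3. Centring of chromosomes ended both FAK-WT calls (adjusted p = 0.0738 and 0.2097).

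Thioredoxin 1 and the mitochondrial peroxiredoxin *Prdx3* stood out in KMF. *Txn1* read 617, 565 and 609 FPKM in FAK KO, 746, 726 and 655 in FAK-WT, 589 and 555 in FAK-R454, 969.6, 936 and 1084 in KMF, and 693, 667 and 671 in β-catenin ΔGSK. *Txn1* rose in KMF (0.74 ± 0.08, adjusted p = 0.000155), with all KMF samples above all others. Its smaller calls in FAK-WT (0.25 ± 0.08, adjusted p = 0.0368) and β-catenin ΔGSK (0.18 ± 0.06, adjusted p = 0.0303) were each lost on leaving out any of 5 of the 6 samples (adjusted p up to 0.132 and 0.0879), the exceptions being FAK-WT replicate 3 and FAK KO replicate 1, respectively. *Prdx3* read 392, 354 and 367 FPKM in FAK KO, 319, 303 and 221 in FAK-WT, 283 and 287 in FAK-R454, 198, 201 and 193 in KMF, and 409.6, 373 and 404 in β-catenin ΔGSK. *Prdx3* fell in KMF (-0.91 ± 0.07, adjusted p = 1.23e-05), in FAK-WT (-0.42 ± 0.13, adjusted p = 0.0331) and in FAK-R454 (-0.38 ± 0.07, adjusted p = 0.00682). The FAK-WT call was lost without any one of the FAK KO samples (adjusted p up to 0.1098), and the FAK-R454 call without either FAK-R454 sample (up to 0.0981). The line means of the other peroxiredoxins differed by less than 1.5 fold. *Prdx4*, the peroxiredoxin of the endoplasmic reticulum, was called higher than FAK KO in FAK-WT (0.26), FAK-R454 (0.39), β-catenin ΔGSK (0.51) and KMF (0.38). *Prdx1*, one of the genes with TGACTCAGC in the window printed above, fell in FAK-R454 (-0.38), in β-catenin ΔGSK (-0.49) and in KMF (-0.45). *Prdx2* fell in FAK-WT (-0.25) and in KMF (-0.24), *Prdx5* rose in FAK-WT (0.39) and in FAK-R454 (0.26), and *Prdx6* rose in β-catenin ΔGSK (0.25). The calls of these other peroxiredoxins were not checked singly against the alternatives or on leaving out a sample.

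Of the 4 glutathione peroxidases *Gpx3* had the widest range of line means, and *Gpx1* fell in β-catenin ΔGSK. *Gpx1* is the main cytosolic enzyme. *Gpx1* read 244, 259 and 238 FPKM in FAK KO, 272, 277 and 273 in FAK-WT, 259 and 239 in FAK-R454, 252, 251 and 297 in KMF, and 174, 171 and 179 in β-catenin ΔGSK. It fell in β-catenin ΔGSK (-0.50 ± 0.06, adjusted p = 0.0001401), with all 3 samples below those of the other lines. *Gpx3*, the secreted form, rested on 46 to 116 fragments per sample. *Gpx3* read 2.42, 2.21 and 2.53 FPKM in FAK KO, 1.68, 1.94 and 1.84 in FAK-WT, 1.72 and 1.45 in FAK-R454, 0.993, 1.48 and 1.01 in KMF, and 1.92, 1.804 and 1.79 in β-catenin ΔGSK. FAK KO was highest. *Gpx3* fell in KMF (-0.997 ± 0.17, adjusted p = 0.00139), by less with a pseudocount of 1 (-0.65), and its calls in β-catenin ΔGSK, FAK-WT and FAK-R454, at -0.36, -0.37 and -0.57, were fragile (adjusted p up to 0.102, 0.134 and 0.209 on leaving out 1 sample). The FAK-WT call was lost without any sample but FAK KO replicate 2, the FAK-R454 call without either FAK-R454 sample or FAK KO replicate 3, and the β-catenin ΔGSK call without replicate 2 or 3 of that line or FAK KO replicate 1 or 3. *Gpx4*, which reduces lipid hydroperoxides and guards against ferroptosis, ranged from 234 FPKM in KMF to 292 FPKM in FAK KO and fell in KMF (-0.32 ± 0.06, adjusted p = 0.00285). *Gpx8* ranged from 17.1 to 23.9 FPKM and rose in FAK-R454 (0.37, adjusted p = 0.0391).

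Among the abundant glutathione transferases, *Gsta4*, *Gstm1* and *Mgst1* were highest in FAK KO. *Gsta4* encodes the alpha-class enzyme that conjugates 4-hydroxynonenal, a product of lipid peroxidation. *Gsta4* read 1081, 1129.9 and 1104 FPKM in FAK KO, 572, 547 and 405 in FAK-WT, 626 and 598 in FAK-R454, 669, 676 and 718 in KMF, and 729, 887 and 876 in β-catenin ΔGSK. FAK KO lay above every other sample and FAK-WT below every other line. *Gsta4* (ENSMUSG00000032348, chr9:78191966-78209348) fell in FAK-WT (-1.14 ± 0.13, adjusted p = 0.000434), in FAK-R454 (-0.85 ± 0.06, adjusted p = 0.000142), in β-catenin ΔGSK (-0.42 ± 0.08, adjusted p = 0.00275) and in KMF (-0.69 ± 0.07, adjusted p = 9.45e-05). Replicate 3 was the lowest FAK-WT sample, and without it the decrease was -0.98 (adjusted p = 3.84e-05), just under 2 fold.

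*Gstm1* is the leading mu-class enzyme. *Gstm1* read 1066, 1068 and 1105 FPKM in FAK KO, 886, 824 and 564 in FAK-WT, 944 and 865 in FAK-R454, 568, 584 and 531 in KMF, and 655, 785 and 907 in β-catenin ΔGSK. It fell in KMF (-0.94 ± 0.07, adjusted p = 1.59e-05), in β-catenin ΔGSK (-0.48 ± 0.11, adjusted p = 0.00508), in FAK-WT (-0.54 ± 0.15, adjusted p = 0.0245) and in FAK-R454 (-0.26 ± 0.07, adjusted p = 0.0322). The FAK-WT call was lost without any one of the FAK KO samples (adjusted p up to 0.0771), and the FAK-R454 call without either FAK-R454 sample or FAK KO replicate 3 (up to 0.282). *Gstm2* read 222, 202 and 228 FPKM in FAK KO, 155, 163 and 104 in FAK-WT, 207 and 194 in FAK-R454, 234, 253 and 221 in KMF, and 226, 254 and 284 in β-catenin ΔGSK. *Gstm2* fell in FAK-WT (-0.65 ± 0.16, adjusted p = 0.0124), where replicate 3 was again the lowest sample. *Gstm5* read 3.68, 2.87 and 3.17 FPKM in FAK KO, 2.6, 2.72 and 2.56 in FAK-WT, 4.09 and 3.64 in FAK-R454, 3.43, 4.13 and 4.58 in KMF, and 3.94, 4.11 and 3.86 in β-catenin ΔGSK. *Gstm5* was called in none of the comparisons with FAK KO. *Gstm1*, *Gstm2* and *Gstm5* sit in 1 cluster on chromosome 3, and fragments shared by such copies could have been counted to either.

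*Mgst1* encodes a membrane-bound transferase that also reduces lipid hydroperoxides. *Mgst1* read 418, 366 and 397 FPKM in FAK KO, 276, 262 and 235 in FAK-WT, 344 and 336 in FAK-R454, 173, 175 and 176 in KMF, and 333, 316 and 328 in β-catenin ΔGSK. The KMF samples are the lowest and FAK KO the highest, with no overlap between FAK KO and any other line. *Mgst1* (ENSMUSG00000008540, chr6:138140316-138156755) fell in KMF (-1.17 ± 0.07, adjusted p = 4.32e-06), in FAK-WT (-0.61 ± 0.08, adjusted p = 0.00115) and in β-catenin ΔGSK (-0.27 ± 0.07, adjusted p = 0.00771). The β-catenin ΔGSK call was lost under median-of-ratios scaling (-0.17, adjusted p = 0.0541) and with chromosomes centred (-0.07, adjusted p = 0.394). The median log2 fold change of chromosome 6 genes was -0.29 relative to all genes in KMF over FAK KO, and with chromosomes centred the *Mgst1* decrease there was -0.87 (adjusted p = 2.65e-05), below 2 fold. *Mgst3* read 51.1, 55.7 and 52.1 FPKM in FAK KO, 51.99, 55.7 and 49.6 in FAK-WT, 43.8 and 42.2 in FAK-R454, 56, 50.9 and 68.97 in KMF, and 36.3, 40.6 and 34.6 in β-catenin ΔGSK. *Mgst3* fell in β-catenin ΔGSK (-0.51 ± 0.08, adjusted p = 0.000532) and in FAK-R454 (-0.30 ± 0.07, adjusted p = 0.0173), the latter lost without either FAK-R454 sample or FAK KO replicate 3 (adjusted p up to 0.175).

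*Gsto1* had the largest called decrease of the 45 genes in β-catenin ΔGSK. It encodes the omega-class enzyme, which reduces dehydroascorbate and mixed disulfides. *Gsto1* read 453, 463 and 483 FPKM in FAK KO, 488, 499.6 and 408 in FAK-WT, 339 and 339.6 in FAK-R454, 468, 470.4 and 465 in KMF, and 123, 118 and 124 in β-catenin ΔGSK. *Gsto1* (ENSMUSG00000025068, chr19:47854970-47864790) fell in β-catenin ΔGSK (-1.94 ± 0.06, adjusted p = 4.36e-08) and in FAK-R454 (-0.46 ± 0.06, adjusted p = 0.00197), and overlapped FAK KO in FAK-WT and KMF. The β-catenin ΔGSK decrease kept its call under every setting and sample removal run.

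The theta-class transferases *Gstt1* and *Gstt3*, neighbors on chromosome 10, were highest in KMF. *Gstt1* read 0.782, 0.833 and 0.711 FPKM in FAK KO, 2.15, 2.43 and 1.498 in FAK-WT, 0.782 and 0.829 in FAK-R454, 6.38, 5.64 and 4.44 in KMF, and 0.415, 0.321 and 0.215 in β-catenin ΔGSK. *Gstt1* (ENSMUSG00000001663, chr10:75783813-75798584) rose in KMF (2.66 ± 0.15, adjusted p = 3.28e-06) and in FAK-WT (1.26 ± 0.20, adjusted p = 0.00218). In both comparisons it was tested only through the line where it is high, since its FAK KO mean is below 1 FPKM. FAK-R454 lay within the range of FAK KO, and both were too low for a test against each other. β-catenin ΔGSK rested on 7 to 13 fragments per sample and was below FAK KO, also without a test. *Gstt3* read 1.31, 0.9995 and 1.35 FPKM in FAK KO, 2.25, 1.704 and 1.71 in FAK-WT, 0.919 and 1.23 in FAK-R454, 2.45, 2.32 and 2.06 in KMF, and 0.618, 0.608 and 0.578 in β-catenin ΔGSK. *Gstt3* rose in KMF (0.86 ± 0.15, adjusted p = 0.00165) and in FAK-WT (0.59 ± 0.18, adjusted p = 0.0277) and, tested only through FAK KO, fell in β-catenin ΔGSK (-0.90 ± 0.18, adjusted p = 0.00254). With a pseudocount of 1 these were 0.57, 0.38 and -0.47. The FAK-WT call was lost on leaving out any sample but FAK-WT replicate 3 (adjusted p up to 0.0997). *Gstp1*, the abundant pi-class enzyme, ranged from 548 to 757 FPKM and rose in β-catenin ΔGSK (0.34 ± 0.08, adjusted p = 0.00619). *Gstp2* is a near-identical copy read at 0.261 to 1.53 FPKM, so its level is uncertain. It was tested in 1 comparison, β-catenin ΔGSK over FAK KO, and not called. *Gstk1* had 10 to 16 fragments in each FAK-WT sample and 0 to 5 in every other sample, where a count of 0 allows up to 3 fragments. Its level was below the limit for a test throughout.

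**Figure D4:**
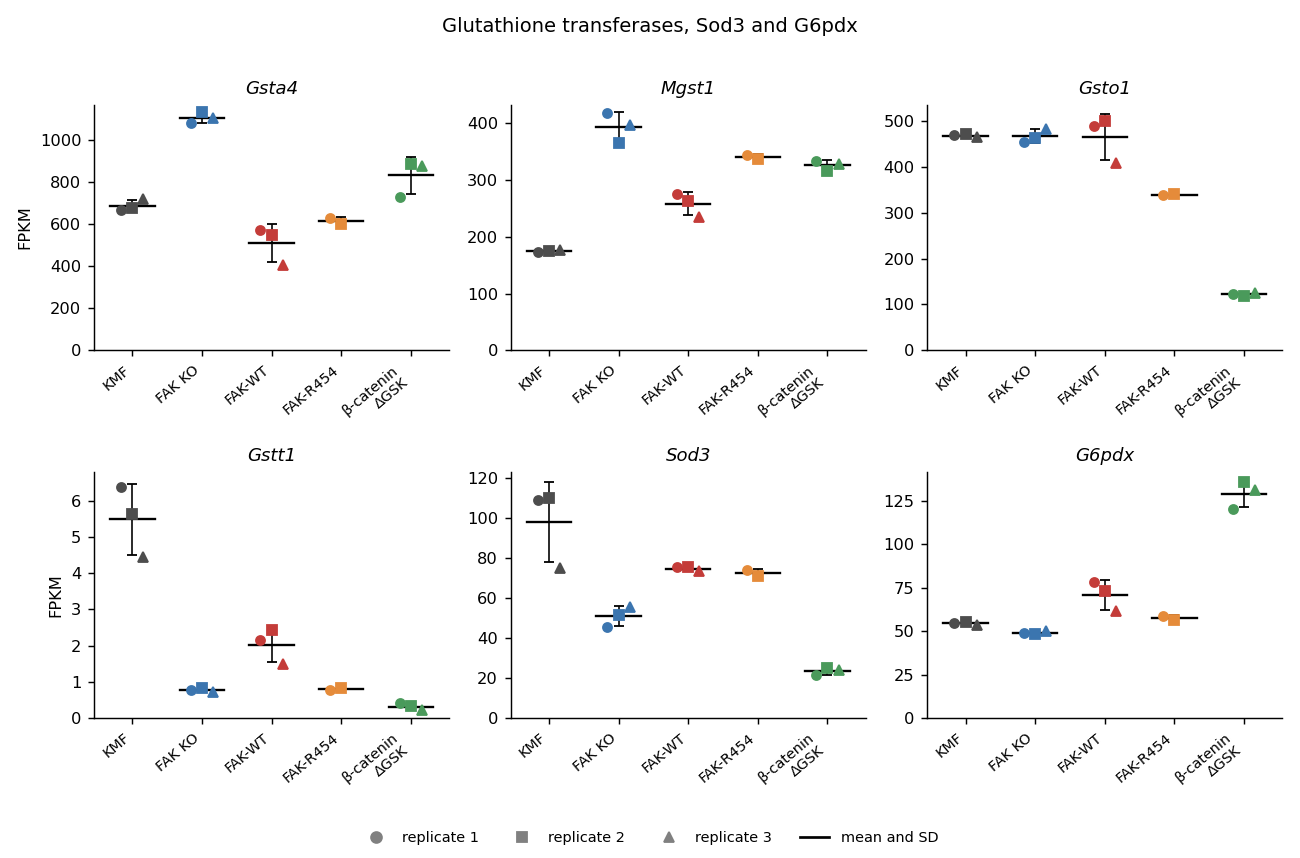
FPKM of *Gsta4*, *Mgst1*, *Gsto1*, *Gstt1*, *Sod3* and *G6pdx* in each sample by line, with line means and SD (n = 3, FAK-R454 n = 2). FAK KO is highest for *Gsta4* and *Mgst1*, KMF for *Gstt1* and *Sod3*, and β-catenin ΔGSK is lowest for *Gsto1* and *Sod3* and highest for *G6pdx*.

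Catalase mRNA was lower in FAK-WT, FAK-R454 and KMF than in FAK KO and higher in β-catenin ΔGSK, while the extracellular superoxide dismutase went the other way in each. *Cat* encodes the enzyme that splits hydrogen peroxide. *Cat* read 55.96, 52.8 and 53.3 FPKM in FAK KO, 39.5, 40.1 and 43.8 in FAK-WT, 38.9 and 35.8 in FAK-R454, 34.1, 35.9 and 39.7 in KMF, and 74.7, 74.8 and 76.8 in β-catenin ΔGSK. *Cat* (ENSMUSG00000027187, chr2:103453849-103485160) fell in FAK-WT (-0.39 ± 0.06, adjusted p = 0.00256), in FAK-R454 (-0.53 ± 0.07, adjusted p = 0.00166) and in KMF (-0.56 ± 0.07, adjusted p = 0.000309), and rose in β-catenin ΔGSK (0.48 ± 0.06, adjusted p = 0.000143). None of these groups overlapped FAK KO, and the 4 calls held under every setting and sample removal run. *Sod3* encodes the secreted dismutase. *Sod3* read 45.5, 51.5 and 55.6 FPKM in FAK KO, 75.1, 75.4 and 73.3 in FAK-WT, 73.6 and 71.1 in FAK-R454, 109, 109.8 and 74.7 in KMF, and 21.4, 24.9 and 23.98 in β-catenin ΔGSK. *Sod3* (ENSMUSG00000072941, chr5:52363946-52371405) rose in FAK-WT (0.56 ± 0.08, adjusted p = 0.00131), in FAK-R454 (0.51 ± 0.09, adjusted p = 0.006396) and in KMF (0.92 ± 0.15, adjusted p = 0.00106), and fell in β-catenin ΔGSK (-1.11 ± 0.09, adjusted p = 1.61e-05). The median log2 fold change of chromosome 5 genes was -0.23 relative to all genes in β-catenin ΔGSK over FAK KO, and with chromosomes centred the *Sod3* decrease was -0.80, below 2 fold. The FAK-R454 call was lost without either FAK-R454 sample (adjusted p up to 0.0812).

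*Sod2*, the mitochondrial dismutase, was highest in β-catenin ΔGSK. *Sod2* read 18.2, 16.8 and 17.96 FPKM in FAK KO, 16.7, 17.4 and 14.8 in FAK-WT, 15.1 and 14.4 in FAK-R454, 18.5, 18.6 and 19.1 in KMF, and 23.3, 21.8 and 24.5 in β-catenin ΔGSK. It rose there (0.39 ± 0.07, adjusted p = 0.00169), and its decrease in FAK-R454 (-0.25 ± 0.07, adjusted p = 0.0406), was lost without either FAK-R454 sample or FAK KO replicate 3 (adjusted p up to 0.272). *Sod1*, the cytosolic form, ranged from 393 to 527 FPKM and rose in β-catenin ΔGSK (0.37 ± 0.08, adjusted p = 0.00362). In that line 3 of the 4 genes for catalase and the dismutases rose and 1 fell, against 23.7% and 34.4% of all genes.

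The comparison of FAK-WT with FAK-R454 sets a GFP-tagged FAK with kinase activity beside 1 without it, both in cells made from KT13. Each is 1 separately made line, so kinase activity cannot be told apart from other differences between the lines. Relative to all genes, the median log2 fold change was 0.20 for chromosome 15 genes, 0.14 for chromosome 17 and -0.18 for chromosome 18. Few of the antioxidant genes differed. Of 43 tested, *Gstt1*, *Gsto1*, *Taldo1* and *Mgst3* were higher in FAK-WT and *Gstm5* and *Mgst1* lower, against 3.38% and 4.44% of all genes. The median was 0.07, against -0.05 for all genes. *Gstt1* was the 1 gene called at 2 fold (1.21 ± 0.22, adjusted p = 0.0311), against 0.696% of all genes. It was tested only because its FAK-WT mean is above 1 FPKM, its call was lost with no filter (adjusted p = 0.0623), and with a pseudocount of 1 the difference was 0.73. At 2 fold limma called 0 lower (0 also at an unadjusted p under 0.05 and by limma-voom), against 0.747%. *Gsto1* was higher (0.45 ± 0.10, adjusted p = 0.0465), *Taldo1* (0.38 ± 0.06, adjusted p = 0.0204) and *Mgst3* (0.29 ± 0.06, adjusted p = 0.0489). *Gstm5* was lower (-0.54 ± 0.09, adjusted p = 0.0284) and *Mgst1* (-0.40 ± 0.08, adjusted p = 0.0356). *Ptk2* mRNA itself was lower in FAK-WT than in FAK-R454 (-0.52 ± 0.06, adjusted p = 0.0121). These calls are fragile. Without FAK-WT replicate 1 or 2, 0 genes were called in either direction (8 to 9 higher and 3 to 6 lower at an unadjusted p under 0.05). Among all genes the calls were then 157 higher and 177 lower without replicate 1, and 64 and 93 without replicate 2. Leaving out either FAK-R454 sample leaves the other alone, and calls then fell further among all genes. Without FAK-WT replicate 3, 14 were higher and 6 lower. Among all genes tested that fit called 1505 higher and 1807 lower, in place of 398 and 523. Median-of-ratios scaling gave 6 higher and 2 lower, and among all genes it turned the share of higher genes from 43.2% of those called to 58.2%. Centring of chromosomes gave 4 higher and 0 lower (3 lower at an unadjusted p under 0.05), and among all genes 316 higher and 214 lower.

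For the genes nearest to NRF2 the interval bounds how large a difference between FAK-WT and FAK-R454 these samples allow. The 95% interval of the log2 difference was -0.17 to 0.21 for *Nfe2l2*, -0.13 to 0.16 for *Nqo1*, -0.13 to 0.20 for *Txnrd1* and -0.12 to 0.14 for *Srxn1*. For *Cat* it was -0.03 to 0.30 and for *Sod3* -0.07 to 0.16. The 4 genes of glutathione synthesis were higher in FAK-WT in their point estimates, by 0.16 to 0.25 on the log2 scale, and none was called. The nearest was *Gclc*, at 0.25 ± 0.06 with an adjusted p of 0.0545, where the FAK-WT samples lay above both FAK-R454 samples. *Me1* was -0.29 ± 0.09 (adjusted p = 0.106), and FAK-WT lay below FAK-R454.

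**Figure D5:**
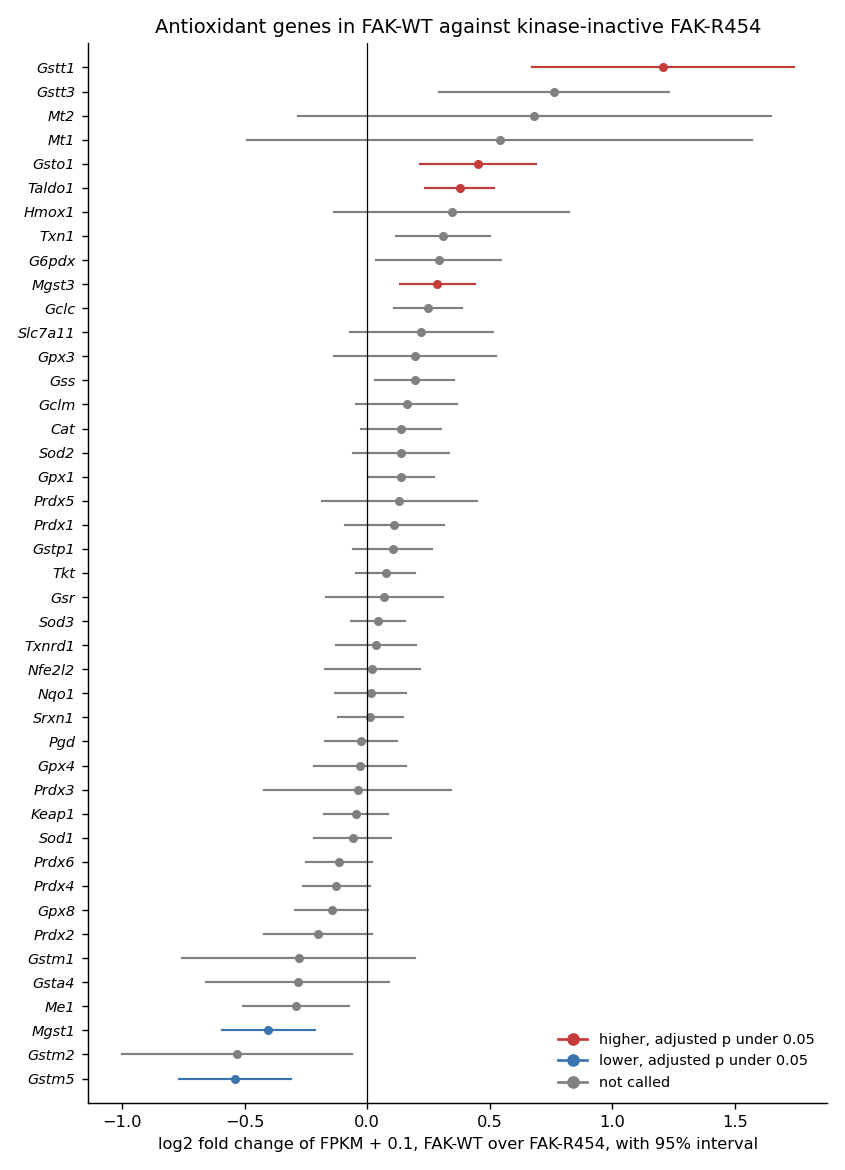
Log2 fold change of FAK-WT over FAK-R454 for the 43 tested genes, with the unadjusted 95% interval as a line. Red and blue mark genes called higher or lower after adjustment over all genes, and the gray genes include some whose unadjusted interval leaves out 0. *Gstt1* is the 1 gene beyond 1, and *Nfe2l2*, *Nqo1* and *Srxn1* lie near 0.

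A wider list of 65 redox genes outside the 45 was read in the same fits. It held partners of NRF2, further NRF2 target enzymes, glutathione transport and breakdown, glutaredoxins and sestrins, more peroxidases and transferases, NADPH supply and metal handling. In each comparison 61 of them were tested. In FAK-WT over FAK KO 10 (16.4%) rose and 22 (36.1%) fell, against 15.6% and 25.2% of all genes. In FAK-R454 over FAK KO 5 (8.2%) rose and 11 (18%) fell, against 9.78% and 9.89%. In β-catenin ΔGSK over FAK KO 19 (31.1%) rose and 20 (32.8%) fell, against 23.7% and 34.4%. In KMF over FAK KO 10 (16.4%) rose and 26 (42.6%) fell, against 23.1% and 28.7%. In FAK-WT over FAK-R454 2 (3.28%) rose and 4 (6.56%) fell, against 3.38% and 4.44%. Of its 7 groups, the further glutathione peroxidases and transferases had the lowest median in each comparison with FAK KO. Of its 13 genes 9 were tested. Of these, 7 (77.8%) fell in FAK-WT (median -0.75 on the log2 scale), 4 (44.4%) in FAK-R454 (median -0.27), 7 (77.8%) in KMF (median -0.45) and 8 (88.9%) in the β-catenin line (median -1.65), to be read against the shares of all genes just given. The group is named because of these values, so its shares describe it and are not a test. These comparisons share the FAK KO samples, so their likeness is not repeated evidence.

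The decreases of 2 fold in this list were led by *Ggt7* in KMF and by transferases in the other lines. In FAK-WT *Gstm7* fell most (-2.18, 3.55 against 15.6 FPKM), then *Gsta1* (-1.81, 39.1 against 137 FPKM) and *Gsta2* (-1.33). *Gsta1* also fell in FAK-R454 (-1.96) and in KMF (-1.43). *Gsta1* and *Gsta2* are close copies of the alpha class, and their separate levels are uncertain. In β-catenin ΔGSK the largest decreases were those of *Mgst2* at -2.38, *Gsta3* at -2.25 (4.08 against 19.6 FPKM) and *Gsta2* at -1.77. In KMF *Ggt7* fell (-2.48) and *Ggt5* (-1.14), both of the gamma-glutamyltransferase family. At 2 fold, 3 genes of the list rose and 12 fell in β-catenin ΔGSK, against 5.13% and 6.99% of all genes. In KMF 4 rose and 3 fell, against 3.97% and 4.04%. In FAK-WT limma called 0 higher and 5 lower, against 2.91% and 1.71%, and in FAK-R454 0 and 1, against 1.93% and 0.812%. *Chac1*, which degrades glutathione inside the cell, rose in KMF (1.95, 21.6 against 5.54 FPKM), beside *Mgst2* at 1.52 and the methionine sulfoxide reductase *Msrb3* at 1.17. In β-catenin ΔGSK *Ggt7* rose (1.44), *Msrb3* (1.03) and *Osgin1* (1.02). *Gsta2* was the 1 gene of the list called at 2 fold between FAK-WT and FAK-R454, lower in FAK-WT at -1.07.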

How the data were processed

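RNA of 14 tumorsphere samples (3 each of β-catenin ΔGSK, FAK-WT, FAK KO and KMF, and 2 of FAK-R454) was sequenced by the authors from poly(A)-selected paired-end libraries. The authors deposited 1 table of FPKM values per gene for mm10 (GRCm38). The study's methods name TopHat2 as the aligner, whereas the submitters' processing notes list STAR 2.5, CASAVA 1.8 and DESeq2, so the aligner is uncertain; the counter, its use of strand and the annotation are not given in the sources used here. FPKM fixes each sample's total, so a value is relative to the rest of its library.

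From the FPKM values, whole fragments were recovered for 100% of values (tolerance 0.01), which gave the depth. Each comparison was fitted with limma 3.58.1 (R 4.3.3; empirical Bayes with trend) on log2(FPKM + 0.1), on the samples of its 2 lines and on genes with a mean above 1 FPKM in either, with Benjamini-Hochberg adjustment over all of them. In simulated data each gene had independent noise, and only genes above 2 FPKM in FAK KO were changed. With 3 against 3 samples (11684 genes) the fit recovered 66% of changes of 1.5 fold and 92% of 2 fold, with 11 false calls. With 2 against 3 samples (11689 genes) it recovered 76% and 94%, with 5 false calls. The spread came from FAK-WT in the first and FAK-R454 in the second, each with FAK KO, so the 2 do not compare sample numbers. A sample that stands apart in many genes, like FAK-WT replicate 3, was not simulated. Samples were grouped by their labels. All 45 genes are accounted for. Full values are given for the 30 genes called at 2 fold in any comparison, or called at any fold with line means over 1.5 fold apart; of the wider list, at most the 3 largest calls at 2 fold per direction are named. The genes and lists were chosen with earlier results of these data known. Alternatives were a pseudocount of 1, no filter, median-of-ratios scaling, 1 fit of all lines, a replicate block, limma-voom on recovered fragments, chromosomes centred on their medians, and leaving out each sample. Promoters came from RefSeq (GRCm38.p6). Gene coordinates are those of the table, and all 45 overlap the GENCODE gene of the same ID. Python 3 scripts with pandas and matplotlib read the files.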

Additional observations from a re-analysis of the deposited data

How the results depend on the processing

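Of 92 calls at any fold among the 30 genes given in full, 53 held under every alternative and every removal of 1 sample, and none changed direction. Calls of *Keap1*, *Gsr*, *Pgd*, *Taldo1*, *Prdx1*, *Prdx2*, *Prdx4*, *Prdx5*, *Prdx6*, *Gpx4*, *Gpx8*, *Gstp1* and *Sod1* were not followed singly and entered only the counts. By comparison, 12 of 22 held in FAK-WT over FAK KO, 7 of 21 in FAK-R454 over FAK KO, 0 of 5 in FAK-WT over FAK-R454, 17 of 22 in β-catenin ΔGSK over FAK KO and 17 of 22 in KMF over FAK KO. Centring of chromosomes lost 19 calls, no filter 17, the replicate block 10, median-of-ratios scaling 9, 1 fit of all lines 5, limma-voom 4 and a pseudocount of 1 lost 0. Beside those named with the genes, calls over FAK KO lost with no filter included *Gpx3* (FAK-WT, FAK-R454, β-catenin ΔGSK), *Gstm1* (FAK-WT, FAK-R454), *Gstt3* (FAK-WT), *Prdx3* (FAK-WT), *Txn1* (FAK-WT, β-catenin ΔGSK) and *Sod2* (FAK-R454). Under median-of-ratios scaling they included *Gpx3* (FAK-WT, β-catenin ΔGSK), *Gstm1* (FAK-R454), *Prdx3* (FAK-WT) and *Sod2* (FAK-R454). With chromosomes centred they included *Gpx3* (FAK-WT), *Gstm1* (both FAK lines), *G6pdx*, *Mgst3* and *Srxn1* (FAK-R454) and *Tkt* (KMF). Calls lost under the replicate block, 1 fit of all lines and limma-voom are given by count only. Of the 7 settings, 5 ended the calls of *Gpx3* in FAK-WT and of *Gstm1* in FAK-R454. In FAK-WT over FAK KO, chromosome centring gave 13 higher and 10 lower genes in place of 11 and 17, and a pseudocount of 1 gave 2 higher at 2 fold in place of 3. In FAK-R454 over FAK KO, no filter gave 4 higher genes in place of 7 and 1 in place of 2 at 2 fold, and limma-voom 1 lower in place of 0 at 2 fold. In FAK-WT over FAK-R454, no filter gave 2 higher and 0 lower in place of 4 and 2 and 0 higher at 2 fold in place of 1 (10 higher and 5 lower at an unadjusted p under 0.05), a pseudocount of 1 also gave 0 higher at 2 fold, limma-voom gave 1 lower and chromosome centring 0 lower (3 at an unadjusted p under 0.05). At 2 fold, chromosome centring gave 1 lower gene in place of 2 in β-catenin ΔGSK over FAK KO, and limma-voom 2 in place of 1 in KMF over FAK KO. No filter tested more genes (21848 against 11841 in FAK-WT over FAK KO). Other causes were not tested.

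On leaving out 1 sample, the counts in FAK-WT over FAK KO ranged from 6 to 10 higher and 10 to 16 lower, with 1 to 2 lower at 2 fold, of which *Gsta4* was lost without FAK-WT replicate 3. In FAK-R454 over FAK KO they ranged from 1 to 9 higher and 6 to 21 lower, with 1 to 2 higher and 0 to 1 lower at 2 fold. In FAK-WT over FAK-R454 they ranged from 0 to 14 higher and 0 to 6 lower, with 0 to 1 higher at 2 fold. Leaving out 1 FAK-WT sample moved the calls among all genes too, to between 64 and 1505 higher and 93 and 1807 lower. In KMF over FAK KO 1 to 2 were lower at 2 fold, and the other counts of KMF and all those of β-catenin ΔGSK stayed within 1.5 times the reported ones. Same-numbered samples were not taken as pairs in any comparison (correlations of -0.25 to 0.45), although in β-catenin ΔGSK over FAK KO all 3 were positive (0.45, 0.28 and 0.076). With the replicate block that comparison gave 20 higher and 14 lower genes in place of 15 and 14. Among all genes it gave 3330 higher and 4823 lower in place of 2828 and 4100. With the replicate block, FAK-WT over FAK-R454 gave 14 higher and 8 lower genes in place of 4 and 2. Among all 11782 genes tested the block gave 1567 higher and 1826 lower in place of 398 and 523. FAK-R454 has no replicate 3, so this fit also takes FAK-WT replicate 3 out of the contrast, and leaving out that sample without a block gave 14 and 6. With the block no count outside FAK-WT over FAK-R454 moved by over 1.5 times. The limit of 1 FPKM kept *Gstk1* out of all comparisons, *Gstp2* out of 4 and *Gstt1* out of 2.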
